A study of Bactrocera dorsalis with 4 samples.

Results

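miR-1 was followed through the lists of known miRNAs of 4 small RNA libraries of Bactrocera dorsalis, the oriental fruit fly. The members were the entries named miR-1-3p or miR-1-5p whose miRBase column reads Yes or Diff, and an entry is 1 sequence at 1 genome position. There were 27 such lines among the 865 lines of the 4 lists. They reduced to 11 distinct entries and 10 distinct sequences, out of 250 distinct entries and 235 distinct sequences with status Yes or Diff. The column asks whether the sequence is in miRBase, the public collection of miRNA sequences, and the lists do not say how Diff was assigned.

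The libraries came from adults aged 12 days that had been separated by sex as newly emerged virgins and kept on artificial diet. The females library was made from bodies after the ovaries had been taken out, and the males library from bodies after removal of the testes. The dissected gonads gave the ovaries library and the testes library. Each of the 4 conditions had 1 library, and the number of flies behind a library was not given in the sources used here. The flies carried no listed allele or treatment. The lists give names, sequences, lengths and positions but no read number, so the depth behind an entry is unknown. For whole libraries the paper gives clean reads, which were most in males, followed by testes, females and ovaries. A listed sequence was taken as detected in that library, and a sequence that was not listed was not read as absent from the tissue. Because the deposited lists hold no amounts and no condition had a replicate, no test between conditions was made, and fewer cells with a miRNA could not be told apart from less of it per cell.

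miR-1 is a muscle miRNA of animals. In Drosophila it is made in the somatic muscles and the heart, and larvae that lack it fail to grow their muscles properly. A miRNA is cut from a hairpin precursor, and the arm that is loaded into an Argonaute protein guides it to mRNAs. The seed, bases 2 to 8 from the 5′ end, sets most of that pairing, so a form that starts at another base carries another seed. For miR-1 the guide in Drosophila is the 3p arm, and the 5p arm is its partner strand.

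The 9 distinct sequences under the name miR-1-3p and the single sequence under miR-1-5p are shown because every later count rests on them. They are written 5′ to 3′ with T for U as in the lists, and capitals mark bases 2 to 8. The letters A to I are names given here.
Form A: tGGAATGTaaagaagtatggag
Form B: tGGAATGTaaagaagtatggct
Form C: aGGAATGTaaagaagtat
Form D: tGGAATGTaaagaagtaa
Form E: aATATAAAgaagtatggag
Form F: aATGTAAAgaagtatgaa
Form G: aTGTAAGGaagtatggag
Form H: tGGGATGTaaagaagtatggt
Form I: tGGAATGTaacgaagtat
miR-1-5p: cCATTCTTccttgcattcgata

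Form A was the only miR-1 sequence with status Yes, and the other 8 forms of the 3p arm and the miR-1-5p sequence had status Diff. Form A and miR-1-5p were listed on the same stretch, the minus strand of contig JFBF01001330.1 of the B. dorsalis genome from 2402 to 2472. The hairpin at this place, taken from the study's own list of precursors, is shown with both arms in capitals.
Hairpin: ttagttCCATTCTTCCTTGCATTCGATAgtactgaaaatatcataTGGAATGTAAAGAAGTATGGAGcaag
The 71 bases of this sequence fill the listed span exactly. The 5p arm took bases 7 to 28 and the 3p arm bases 46 to 67, with 17 bases between them. On the contig these are 2445 to 2466 for the 5p arm and 2406 to 2427 for the 3p arm. RNAfold gave a folding free energy of -25.7 kcal/mol at 37 degrees and paired 17 bases of the 5p arm with bases of the 3p arm. Whether a gene lies over this stretch was not analysed here, since no annotation of these contigs was used.

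miR-1-3p was detected in all 4 libraries, with 9 forms in the female bodies, 8 in the male bodies and 2 in each of the gonads. Forms A and B were the ones listed in every library. Both bodies, and neither gonad library, listed forms C, D, E, F, G and H. Form I was listed in females alone. Thus both gonad libraries held the same pair of forms, and the bodies differed from each other by 1 form. With the miR-1 entries that the miRBase column marks as New added, the order of the bodies turned, with 13 forms in males and 11 in females, and the ovaries had 3 against 2 in testes. miR-1-5p had 1 form, the same in all 4 libraries. Of the 9 forms of the 3p arm, 7 were listed in a body library and in no gonad library. Over all 235 distinct known sequences this pattern was seen for 44, or 18.7%, and the reverse, a gonad library and no body library, for 22, or 9.36%. Sequences listed in all 4 libraries made up 55.7% of the 235, against 2 of the 9 forms.

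**Figure D1:**
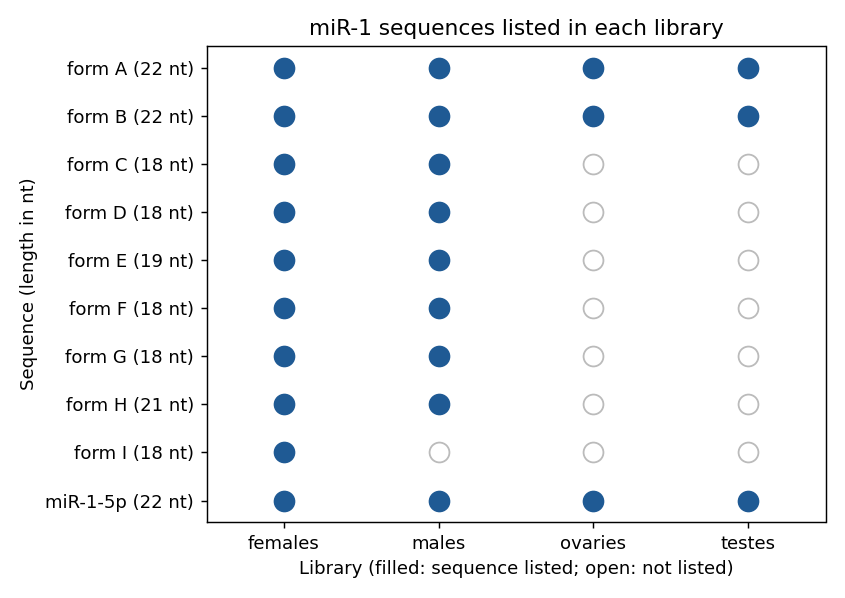
Detection of the miR-1 sequences, with the 4 libraries on the x axis and the 9 miR-1-3p forms and miR-1-5p, with their lengths in nt, on the y axis; a filled circle is a listed sequence and an open circle one that is not listed. Forms A and B and miR-1-5p fill all 4 columns, while forms C to H fill the columns of females and males and form I that of females.

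The forms were placed on form A without gaps, at the place with the fewest differing bases. Differences are written with the base of form A first, then its position counted from 1 at the 5′ end of form A, then the base of the other form. Of the 8 other forms, 6 differed from form A at 1 base and 2 at 2 bases, which made 10 differing bases in all. Reads were kept as known with no more than 1 mismatch to miRBase or to earlier miRNAs of this species. That rule limits how far a form can differ, and the sequence each form was matched to is not listed. None of the forms was contained in another, so every form differed from each of the others by more than its length. A difference was called internal when at least 2 bases of the form lay on each side of it, and an end difference otherwise.

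Internal differences were found in 4 forms. Form E carried G7A and form H carried A4G, which are the 2 differences within the seed stretch of form A. Forms G and I both differed at position 11, which lies outside the seed stretch of form A, form G by A11G and form I by A11C. In form G, which starts later, the changed base fell within its own seed, while in form I it did not. These 2 forms did not cover the same bases, since form G ran from position 5 to 22 and form I from 1 to 18.

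End differences alone were found in another 4 forms. Form C had T1A at its first base and form D had T18A at its last base. Form F had G20A, at the base before its last. Form B, the form that was listed in every library beside form A, matched it over 20 bases and then carried A21C and G22T. Form H had A21T at its last base beside its internal difference. With only the first and the last base counted as ends, 6 forms had an internal difference in place of 4, since forms B and F joined them.

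The 4 exchanges between A and G (G7A, G20A, A11G and A4G) were each in a different form, and the other 6 differences were exchanges of a purine with a pyrimidine. The run shared by all 9 forms without a difference was 6 bases long, from position 12 to 17 of form A. Of the forms, form A alone was found in full within the printed hairpin. The first 20 bases of form B, the first 17 of form D and the first 16 of form F were also in it. Counted from any base, the longest run in it was 17 bases for form C, 16 for form H and 15 for form E. For form G it was 11 bases and for form I 10 bases.

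**Figure D2:**
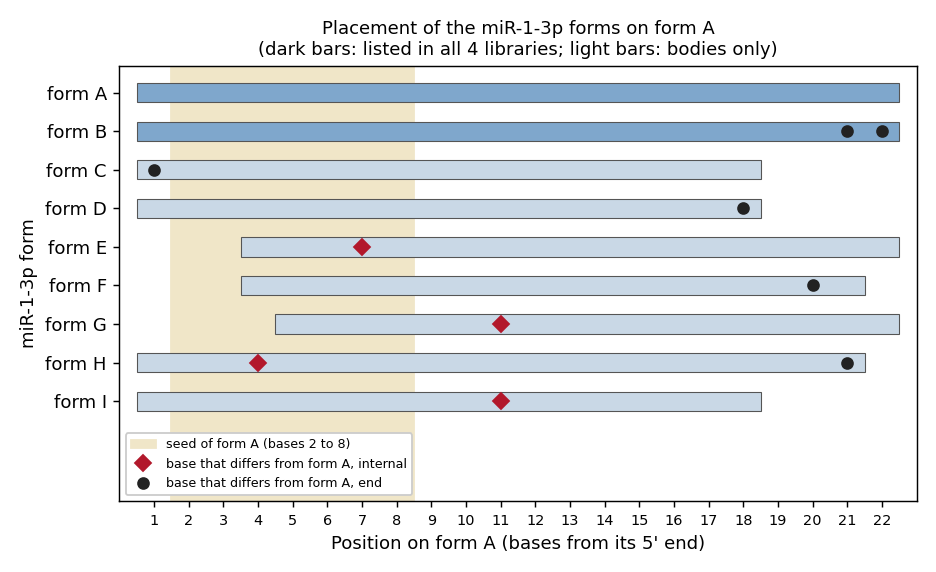
Gapless placement of the 9 miR-1-3p forms on form A, with the position on form A in bases from its 5′ end on the x axis and the forms on the y axis; bars are the bases covered, red diamonds internal differences, black circles end differences, and the shaded stretch is bases 2 to 8. Forms E, F and G start at position 4 or 5, and the diamonds of forms E and H lie within the shaded stretch.

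The lengths of the 3p forms were 18 nt for 5 forms, 19 nt for 1, 21 nt for 1 and 22 nt for 2. Both 22 nt forms were those of all 4 libraries. The 7 forms of the bodies were 18 to 21 nt long with a median of 18 nt. The study removed sequences shorter than 18 nt, so no listed form could be shorter. For other names, the 37 sequences listed in a body library and no gonad library were 18 to 24 nt long with a median of 22 nt, and the 128 listed in all 4 libraries had the same median of 22 nt. Sequences of 18 nt made up 14 of the 235 known sequences, or 5.96%, and 5 of these 14 were miR-1-3p forms. Since the entries carry no amounts, these are lengths of listed sequences and not of reads.

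The start of a form sets its seed. Of the 9 forms, 6 started at position 1 of form A, 2 at position 4 (forms E and F) and 1 at position 5 (form G). Forms A, B, C, D and I shared the seed GGAATGT. Form H had GGGATGT because of A4G. Each of forms E, F and G had a seed of its own, as the capitals mark, so that the 9 forms held 5 seeds. Only GGAATGT among them was listed in the ovaries and testes, and the other 4 were listed in both bodies. Form I, the one form of a single library, kept GGAATGT. The first base was T in 5 forms and A in 4. None of these seeds, nor CATTCTT of miR-1-5p, was the seed of a predicted miRNA of the combined libraries. Among known names with status Yes or Diff, none other than miR-1 had them, and entries marked New were not searched.

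The 9 forms were listed at 10 positions, 9 on as many contigs of the B. dorsalis genome and 1 on 2L, the name of a chromosome arm in Drosophila melanogaster. Form E was the one with 2 positions, on the minus strand of JFBF01000046.1 from 1038118 to 1038169 and on the plus strand of JFBF01000143.1 from 86194 to 86260. Every other form had its own position, and the hairpin of form A on JFBF01001330.1 was shared with miR-1-5p alone. The paper counts miR-1-3p among its male-biased miRNAs and locates it on JFBF01000002.1, the contig of form G here. That call rests on amounts, which the lists used here do not hold. By qRT-PCR the paper also reports the same miRNA as expressed preferentially in testes. The equal numbers of forms in the ovaries and testes libraries cannot be set against that result, since they are not amounts. Form B was the form under 2L, on the plus strand from 20487441 to 20487531. The build behind the arm name is not given in the sources used here. Form B therefore had no position on a B. dorsalis contig, and without it the gonad libraries held form A alone.

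The listed span from start to end differed widely between the positions. It was 71 bases for form A, 91 for form B and 105 for form D on JFBF01000150.1 and for form I on JFBF01000012.1. For form G on JFBF01000002.1 it was 57 bases, and for form E 52 and 67 bases. The shortest spans were 25 bases for form F on JFBF01000224.1, 32 for form C on JFBF01006513.1 and 34 for form H on JFBF01000319.1. In these 3 the span was under 2 lengths of the listed sequence, which is less than a pair of arms of that length laid end to end. Of all 250 distinct known entries, 11 or 4.4% had a span that short, and 8 of the 239 entries of other names. Among those 8 were entries of miR-375-3p (20 and 30 bases), miR-193-5p (31 bases) and miR-285-3p (31 bases). The rest were of miR-4-3p, miR-5-3p, miR-274-5p and miR-965-3p. The median span was 62 bases for the 10 miR-1-3p entries and 90 bases for the other 239. The 3 forms with such a span were listed in both bodies and in neither gonad. Without them females had 6 forms and males 5, against 2 in each gonad library.

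**Figure D3:**
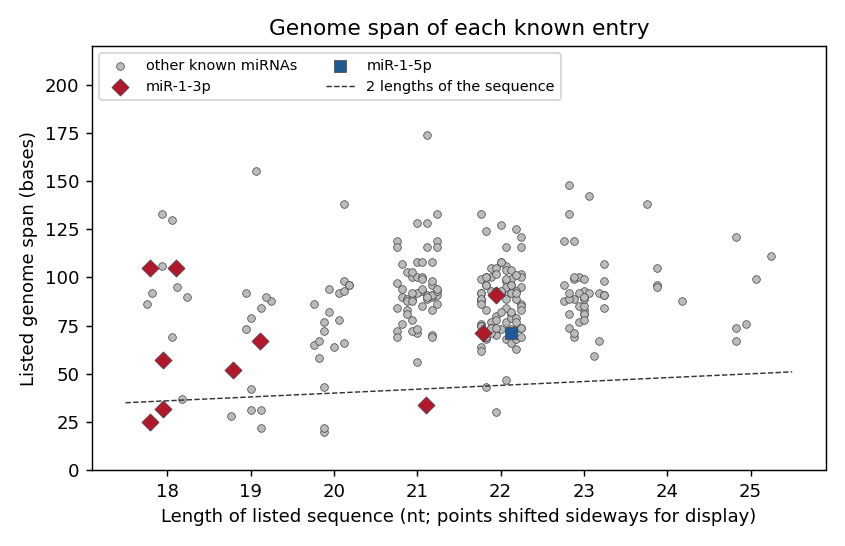
Listed genome span in bases (y axis) against the length of the listed sequence in nt (x axis) for every distinct known entry, with miR-1-3p as red diamonds, miR-1-5p as a blue square and other names as grey circles. Below the dashed line of 2 lengths lie 3 of the 10 miR-1-3p entries, with 25, 32 and 34 bases.

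No other known miRNA of any status was listed within 10000 bases of a miR-1 position. On 7 of the 9 contigs, among them that of form A, miR-1 was the only known name. On JFBF01000002.1 the nearest start of another name was 1807695 bases from form G, and on JFBF01000012.1 it was that of miR-92b-3p, 285787 bases from form I. Under 2L the nearest was miR-2b-3p, 917259 bases from form B.

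miR-1-3p had more forms than any other of the 165 known names. The next were miR-2a-3p and miR-375-3p with 5 forms each, followed by 7 names with 3 forms (miR-2b-3p, miR-6-3p, miR-10-3p, miR-79, miR-193-5p, miR-285-3p and miR-988-5p). A further 42 names had 2 forms and 113 names had 1. The share of miR-1-3p in the distinct known sequences was 4.71% of 191 in females and 4.12% of 194 in males, and 1.27% of 157 in ovaries and 1.14% of 176 in testes. Every other name had at most 1 sequence that was listed in a body library and in no gonad library, while miR-1-3p had 7.

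Among the 108 names listed in all 4 libraries, 10 or 9.26% had more forms in each body library than in each gonad library, and miR-1-3p was 1 of the 10. In the other 9 (miR-10-3p, miR-193-5p, miR-278-3p, miR-284-3p, miR-285-3p, miR-927-3p, miR-927-5p, miR-987-5p and miR-1000-5p), the smaller body number exceeded the larger gonad number by 1. For miR-1-3p it exceeded it by 6. The opposite order was seen for 2 names, and 74 names had the same number in every library. The numbers most like those of miR-1-3p, by the sum of absolute differences over the 4 libraries, belonged to miR-10-3p, miR-193-5p, miR-285-3p and miR-375-3p, all at a sum of 11. The first 3 of these had 3 forms in each body and 2 in each gonad library. miR-375-3p had 5 forms in females and 4 in males, but while the ovaries listed 1, the testes listed 4, so it did not separate bodies from gonads.

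**Figure D4:**
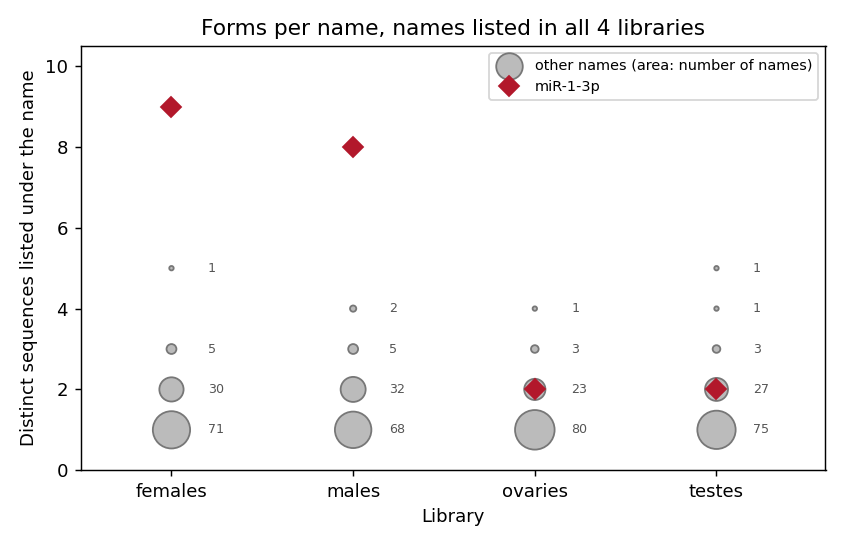
Number of distinct sequences per name (y axis) in each library (x axis) for the 108 names listed in all 4 libraries; grey circles are the other 107 names, with the number of names beside each, and red diamonds are miR-1-3p. The diamond lies at 9 in females and 8 in males, above every other name, and at 2 in ovaries and testes.

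Counted by name, the arms of miR-1 were unequal in forms, with 9 for the 3p arm against 1 for the 5p arm. Of the 9, form A alone was listed at the position of miR-1-5p. These counts therefore compare names and not the 2 arms of a single hairpin. Of 45 hairpin names with both arms listed, 27 had equal numbers, 9 had more forms of the 3p arm and another 9 had more of the 5p arm. The difference of 8 for miR-1 was the widest. In the other 8 names with more forms of the 3p arm it was 1, as in miR-92b with 2 forms against 1.

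A list of miRNAs with roles in the muscle of Drosophila or its attachment held miR-1, miR-133, miR-9a, which acts in muscle attachment and flight muscle, and miR-92b, which acts with the muscle factor Mef2. miR-133 was not listed in any library. miR-9a-5p and miR-9a-3p each had 1 form, listed in every library. miR-92b-3p had 2 forms in every library and miR-92b-5p had 1, in testes alone. Of these names, miR-1-3p was the only one with more forms in the bodies than in the gonads. The lists hold no other measure of muscle content, so the muscle label of miR-1 rests on what is known from other animals.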

How the data were processed

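Small RNA of 4 tissue samples was sequenced by the authors, 1 library each. Reads were trimmed and filtered by length, and those matching mRNA, Rfam and Repbase were removed. Reads that matched miRBase, or miRNAs found before in this species, with no more than 1 mismatch were kept as known. Per the labels, ACGT101-miR 4.2 was used. Each deposited list holds, for an entry, its name, sequence, length (nt), precursor position (bases) and miRBase status, and no amount. Fold differences, intervals and tests need amounts and were not computed. Entries marked New were left out of the members.

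The sequences were counted as distinct sequences per name and library. Forms were placed on the form found in most libraries, ties going to status Yes, without gaps and with at least 12 bases of overlap. The placement was tested on simulated data with 1 planted difference per form, and it recovered 200 of 200. The planted difference was always internal, so end differences and forms with more than 1 difference were not part of that test. Nor was a start as late as that of form G. The named miRNAs were the members, the names with the most forms, those nearest to miR-1-3p in numbers of forms, seed sharers, neighbours within 10000 bases and a muscle list. Where ranks tied, all tied names were given. The members and lists were chosen with earlier results of these data known. Python 3.11.15, pandas 2.3.3, numpy 2.4.6, matplotlib 3.10.9 and RNAfold 2.7.2 were used. The alternatives changed the unit counted, the positions, the statuses and the alignment. The reference form was also taken from the hairpin, where it has the same bases as form A. Targets and qRT-PCR were not analysed here.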

Additional observations from a re-analysis of the deposited data

How the results depend on the processing

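The number of miR-1-3p forms depended mainly on which entries were counted. With status Yes only, it was 1 in every library and 1 over all lists. On B. dorsalis contigs only, it was 1 in ovaries and 1 in testes. With entries marked New added it was 13 in males and 14 over all lists, and with 11 in females the order of the bodies turned, while ovaries had 3 and testes 2. For miR-1-5p it was 2 in females, 2 in males, 2 in testes and 3 over all lists. Without positions of a span under 2 lengths, an alternative chosen after seeing the data, males had 5. No form was contained in another, so merging forms that differ only in length could change no number. With that merging included, the other 38 of the alternatives, counted per library, kept the number within 1.5 times. Among them, the rank of miR-1-3p as the name with the most forms was 1 by entries (10 against 7 for the next name), with copy numbers merged, without the short spans and on contigs only, the last 2 also chosen after seeing the data. The reference from the hairpin was identical to form A, so it could not change the 4 forms with an internal difference. With insertions and deletions allowed there were again 4. No paired analysis was possible because the lists hold no amounts to compare within a pair. Depth limits what an unlisted form can mean, and it is unknown here for single entries.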

Other observations

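Outside the members, 6 further sequences were listed under mir-1-p3 or mir-1-p5 and marked New, at 7 positions. Females listed 2 of them, males 5, ovaries 1 and testes 1. Of the 6, which were 18 to 20 nt long, 1 of 19 nt was listed in males and ovaries and 1 of 19 nt in testes alone. The others were listed in bodies only. The 18 nt sequence that was listed as mir-1-p3 on one contig was listed as mir-1-p5 on another, so the arm in these names was not fixed by the sequence.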
